A study of Homo sapiens with 6 samples.

Results

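The insulin-like growth factor (IGF) binding proteins IGFBP1, IGFBP2, IGFBP3, IGFBP4, IGFBP6 and IGFBP7, the IGF2 receptor IGF2R and the protease PAPPA were followed in A549 cells after DDX17 knockdown. These 8 genes were taken by symbol from the 29476 genes of the count table, and all 8 had enough reads to be tested, as had 15615 genes in all. DDX17 is a DEAD-box RNA helicase, and A549 is a widely used line of human lung adenocarcinoma cells. Polyadenylated RNA was sequenced from 3 siCtrl libraries, whose cells were labelled as carrying a control plasmid and, by the study's methods, received a nontargeting siRNA, and from 3 siDDX17 libraries, whose cells received a DDX17 siRNA. Both groups were cultured in serum and transfected with Lipofectamine, and the methods name a harvest at 48 h for RT-qPCR and no separate time for RNA-seq. The methods give 1 siRNA sequence for DDX17, so effects of the lost protein and of that siRNA's sequence cannot be told apart.

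IGFBPs are secreted proteins that bind IGF1 and IGF2 in the space around cells and hold them away from the IGF1 receptor, and several also act on cells without IGF. IGFBP7 differs from the others in that it binds IGFs only weakly. PAPPA is a secreted metalloprotease that cleaves IGFBP4 and so frees bound IGF. IGF2R clears IGF2 from the cell surface and carries lysosomal enzymes that bear mannose 6-phosphate to the endosome.

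The libraries held 30658136 to 39182371 counted reads, and the 8 genes had between 568 and 167925 reads each per library. Levels are given as CPM, the usual unit of reads scaled to the size of the library (here by the TMM method), with the values of replicates 1 to 3 in that order. DDX17 had 177, 184 and 206 CPM in the control libraries, against 32.1, 30.8 and 30.4 CPM in the knockdown libraries. Of 6 epithelial markers, KRT7, KRT8 and KRT18 reached at least 1004 FPKM in every library, whereas KRT19 lay between 19.8 and 26.1 FPKM, CDH1 between 2.91 and 3.35 and EPCAM between 0.34 and 1.14. AKR1B10, NQO1 and ALDH1A1, which are abundant in this line, reached at least 831 FPKM and AKR1C1 at least 129.99 FPKM. Of 12 markers of leukocytes, endothelium and fibroblasts, 10 were analysed here, and none exceeded 1.09 FPKM in any library. On the second principal component, with 11.96% of the variance, siCtrl 1 scored 27.6, apart from siCtrl 2 at -11.2, siCtrl 3 at -16.9 and the siDDX17 libraries between -2.19 and 2.32. In several results where siCtrl 1 also stood apart, the value without it is given.

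The genes did not move together. At an adjusted p under 0.05 (edgeR), 6 of the 8 were higher in siDDX17, against 24.5% of all tested genes, and 1 was lower, against 24.3%. IGFBP3 and IGFBP4 passed it with a rise of more than 2-fold, as 4.65% of all genes did. IGFBP1 passed it with a fall of more than 2-fold, as 2.92% did. IGFBP7, PAPPA, IGF2R and IGFBP2 rose by smaller amounts, and IGFBP6 did not pass the threshold. At the limits of the study's methods, an unadjusted p under 0.01 and a change over 1.5-fold, IGFBP3, IGFBP4 and IGFBP7 were higher (3 of 8, beside 11% of all tested genes) and IGFBP1 was lower (1 of 8, beside 8.03%). The median log2 fold change of the 8 was 0.42, beside 0.01 over all tested genes. The siCtrl and siDDX17 libraries did not overlap for 7 of the 8 genes, which was also true of 56.5% of all tested genes. In bulk RNA a change in the level per cell and a change in the share of cells that express a gene cannot be told apart.

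**Figure D1:**
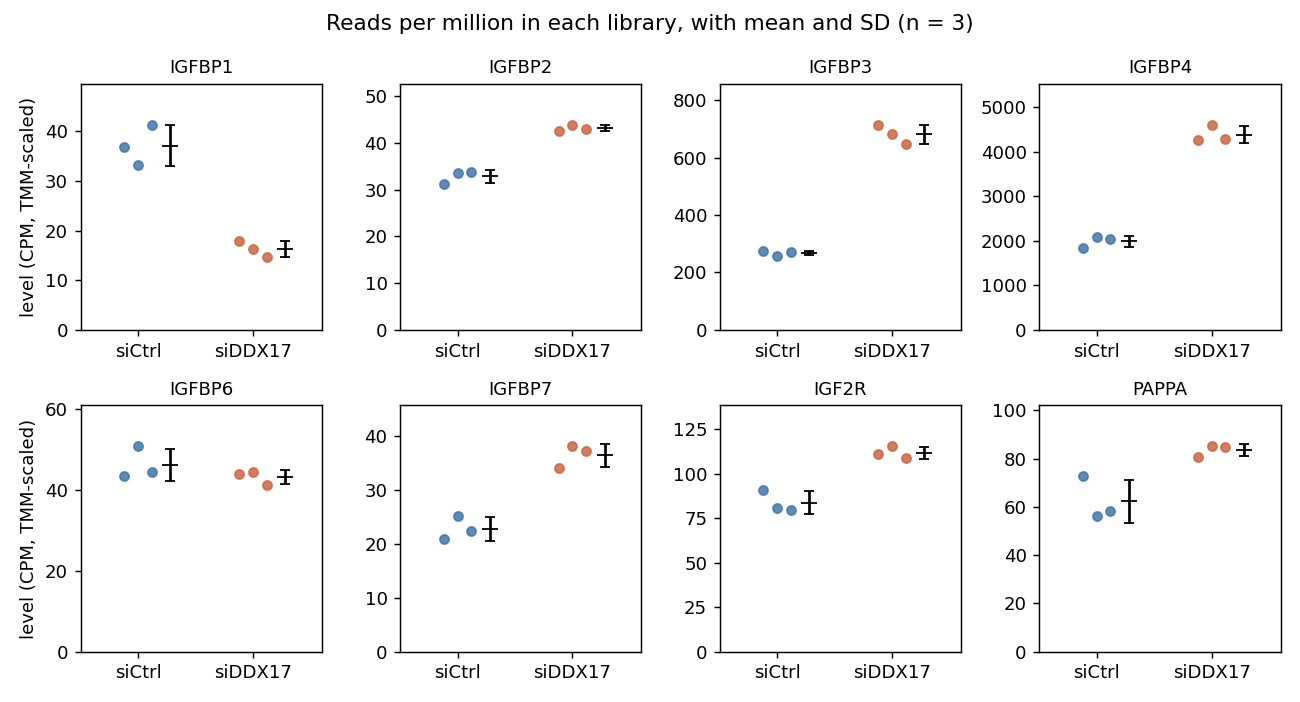
Level of each gene in each library in TMM-scaled CPM (vertical axes from 0), with siCtrl in blue and siDDX17 in orange, and the mean and SD of 3 libraries beside the points. IGFBP3 and IGFBP4 lie far higher in siDDX17 and IGFBP1 lower, while the IGFBP6 points of both groups share the range from 41.3 to 50.7 CPM.

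IGFBP3 (ENSG00000146674.14) occupies chromosome 7, minus strand, 45912245 to 45921874, and its canonical transcript has 5 exons. It encodes the main IGF carrier of the blood, which in tumour cells also limits growth and is a known p53 target. Its level was 273, 258 and 272 CPM in the control libraries, against 715, 681 and 649 CPM in the knockdown libraries. Each siDDX17 library was more than 2-fold above each siCtrl library. The log2 fold change was 1.35 (standard error 0.0587, edgeR adjusted p = 2.38e-09), a 2.54-fold rise, and 279 of the 15615 tested genes had a larger one.

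IGFBP4 (ENSG00000141753.6) occupies chromosome 17, plus strand, 40443450 to 40457725, with 4 exons in its only annotated transcript. It encodes an IGF inhibitor and is the substrate of PAPPA. Its level was 1842, 2082 and 2036 CPM in the control libraries, against 4268, 4606 and 4280 CPM in the knockdown libraries. Here too every siDDX17 library exceeded 2-fold of every siCtrl library. The log2 fold change was 1.14 (standard error 0.0663, edgeR adjusted p = 2.43e-08), a 2.21-fold rise, and 516 tested genes had a larger one. Without siCtrl 1, the lowest of the control libraries, the log2 fold change of IGFBP4 was 1.08.

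The promoters of IGFBP3 and IGFBP4, which rose most among the 8 genes, are shown as the 250 bases before the RefSeq start on GRCh38.p14, at chr7:45921273-45921522 (minus strand) for IGFBP3 and chr17:40443200-40443449 (plus strand) for IGFBP4, with capitals for the TATA box TATAAA or the GC box GGGCGG on either strand:
IGFBP3: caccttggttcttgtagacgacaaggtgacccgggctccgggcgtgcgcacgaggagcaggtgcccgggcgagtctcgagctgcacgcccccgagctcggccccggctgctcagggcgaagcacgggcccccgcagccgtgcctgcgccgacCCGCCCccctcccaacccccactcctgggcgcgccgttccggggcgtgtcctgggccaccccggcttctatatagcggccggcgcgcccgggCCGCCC
IGFBP4: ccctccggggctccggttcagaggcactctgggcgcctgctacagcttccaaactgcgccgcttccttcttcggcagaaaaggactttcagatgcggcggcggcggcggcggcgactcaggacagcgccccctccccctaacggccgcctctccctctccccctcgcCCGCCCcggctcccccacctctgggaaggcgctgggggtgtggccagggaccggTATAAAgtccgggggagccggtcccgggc
IGFBP3 held 2 GC boxes and 0 TATA boxes by this spelling, and IGFBP4 held 1 of each. Of 35116 promoter windows of this length, 42.6% held the GC box and 10.7% the TATA box, and no copy of AP-1's TGACTCA (4.2% of windows) or of CCAAT (32.0%) was present in either promoter. None of these 4 spellings contains another. The IGFBP3 window lies inside the GENCODE gene, whose annotated span begins further upstream. Both promoters were rich in G and C, at 76.0% and 71.6% beside a median of 58.0%. RefSeq promoter entries were matched for 6 of the 8 genes, without IGFBP1 and IGFBP7.

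IGFBP1 (ENSG00000146678.9) moved in the opposite direction. Its product binds IGFs and, through an RGD motif, the integrin of which ITGA5 is the alpha chain, and its gene is induced by stress and repressed by insulin. Its level was 36.9, 33.2 and 41.4 CPM in the control libraries, against 17.8, 16.3 and 14.7 CPM in the knockdown libraries. All siDDX17 libraries were lower than all siCtrl libraries. The log2 fold change was -1.19 (standard error 0.0930, edgeR adjusted p = 3.24e-07), a level 2.28-fold lower, and 289 tested genes had a lower fold change.

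IGFBP1 and IGFBP3 are neighbours. IGFBP1 lies on the plus strand of chromosome 7 from 45888360 to 45893660, and the genes face each other across 18.6 kb in which GENCODE release 44 places 0 other genes. The reads of IGFBP3 per read of IGFBP1 were 7.40, 7.78 and 6.58 in the control libraries, against 40.1, 41.7 and 44.01 in the knockdown libraries. All knockdown libraries lay above all control libraries in this ratio. IGFBP2 (chromosome 2, 216632828 to 216664436, plus strand) is placed likewise beside IGFBP5, at a distance of 7.7 kb.

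IGFBP7 (ENSG00000163453.11, chromosome 4, 57030773 to 57110385) was at 20.9, 25.2 and 22.3 CPM in the control libraries, against 34.0, 38.05 and 37.2 CPM in the knockdown libraries. It rose by a log2 fold change of 0.68 (standard error 0.0799, edgeR adjusted p = 1.30e-05) without overlap of the groups. Its gene overlaps POLR2B over 386 bases, the pseudogene UBE2CP3 (not analysed here) over 450 bases and IGFBP7-AS1, which had at most 3 reads, all on the other strand. The study's methods name a stranded library kit, but the use of strand in counting is not given in the sources used here. If strand was not used, reads in those stretches may belong to either. IGFBP2 (ENSG00000115457.9), an IGFBP often raised in tumours, was at 31.3, 33.5 and 33.7 CPM in the control libraries, against 42.6, 43.9 and 43.0 CPM in the knockdown libraries. It rose by a log2 fold change of 0.39 (standard error 0.0608, edgeR adjusted p = 0.000135).

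IGFBP6 (ENSG00000167779.7, chromosome 12, 53097436 to 53102345) encodes the IGFBP with a preference for IGF2. It had 43.4, 50.7 and 44.5 CPM in the control libraries, against 43.8, 44.3 and 41.3 CPM in the knockdown libraries. The groups overlapped. Its log2 fold change was -0.10 (standard error 0.0692, edgeR adjusted p = 0.266), with scaling by library size only it turned to 0.03, and without siCtrl 1 it was -0.15 (adjusted p = 0.0384).

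PAPPA (ENSG00000182752.9, chromosome 9, 116153791 to 116402321, 22 exons) was at 72.7, 56.4 and 58.2 CPM in the control libraries, against 80.9, 85.1 and 84.98 CPM in the knockdown libraries. The siDDX17 libraries were higher, with siCtrl 1 nearest to them. The log2 fold change was 0.42 (standard error 0.0831, edgeR adjusted p = 0.000937), and 0.53 without siCtrl 1. IGF2R (ENSG00000197081.12, chromosome 6, 159969082 to 160113507, 48 exons) was at 91.0, 80.8 and 79.4 CPM in the control libraries, against 111.0, 115 and 109 CPM in the knockdown libraries. It rose without overlap, by a log2 fold change of 0.42 (standard error 0.0631, edgeR adjusted p = 0.000120), and by 0.47 without siCtrl 1. On the other strand PAPPA overlaps ENSG00000244757 over 30072 bases and PAPPA-AS2 over 2941 bases, neither of which was analysed here, and PAPPA-AS1, which had at most 5 reads, so the same limit holds there. IGF2R overlaps AIRN on the other strand over 4374 bases, not analysed here, and the pseudogene CHP1P2, which had at most 24 reads.

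**Figure D2:**
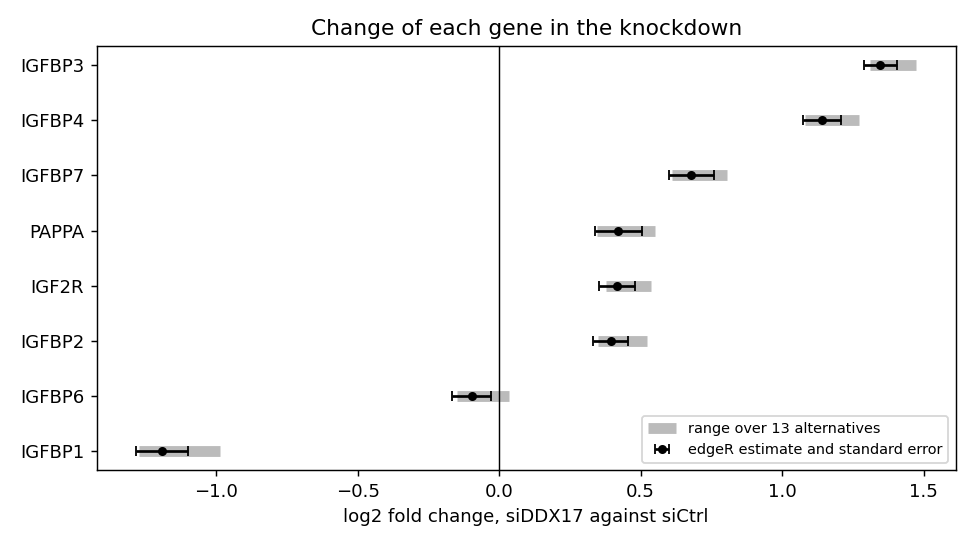
Log2 fold change of each gene, siDDX17 against siCtrl (horizontal axis), with the edgeR estimate and standard error in black and the range over 13 alternative settings in grey. IGFBP3 and IGFBP4 stand to the right at 1.35 and 1.14 and IGFBP1 to the left at -1.19, and only the grey bar of IGFBP6 crosses 0.

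Whether IGFBP3 and IGFBP4 rose more than the other genes was tested on the ratio of 2 genes within each library, in which the scaling between libraries cancels apart from the small prior count. In all 13 pairs were compared. The study had already reported a rise of IGFBP3 and IGFBP4 in these same libraries. The choice of these 2 therefore favours a larger rise than in the others, and the differences below are read as sizes. The rise of IGFBP3 exceeded that of IGFBP7 by 0.67 on the log2 scale (95% interval 0.46 to 0.87), and those of PAPPA, IGF2R and IGFBP2 by 0.92, 0.93 and 0.95. Its distance to IGFBP6 was 1.44 and to IGFBP1 2.53 (95% interval 2.34 to 2.72). The rise of IGFBP4 exceeded that of IGFBP7 by 0.46 (95% interval 0.29 to 0.64), and those of PAPPA, IGF2R and IGFBP2 by 0.71, 0.73 and 0.75. The distance of IGFBP4 was 1.24 to IGFBP6 and 2.33 to IGFBP1.

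These 12 differences passed an adjusted p of 0.05 (limma, over all tested genes), the largest being 0.000195 for IGFBP4 against IGFBP7. Most genes passed the same test, 94.3% against IGFBP3 and 89.9% against IGFBP4, so passing it is no particular property of the family. Every ratio in a fit shares the noise of IGFBP3 or IGFBP4, which makes these p-values too small and can make the intervals too narrow. With the spread of each ratio alone the largest adjusted p was 0.0183, for IGFBP4 against PAPPA. The 95% interval of IGFBP3 then widened to 0.30 to 1.04 against IGFBP7 and to 2.305 to 2.758 against IGFBP1. That of IGFBP4 against IGFBP7 was 0.31 to 0.62, slightly narrower. In exact two-sided permutation tests over the 6 libraries each of the 12 gave p = 0.1, the smallest that 3 against 3 allow.

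The difference between the rises of IGFBP3 and IGFBP4 themselves did not pass the threshold with all 6 libraries. The reads of IGFBP4 per read of IGFBP3 were 6.74, 8.07 and 7.49 in the control libraries, against 5.97, 6.77 and 6.60 in the knockdown libraries. The groups overlapped through siCtrl 1. The rise of IGFBP3 was larger by 0.20 (95% interval -0.02 to 0.43, limma adjusted p = 0.0766, exact permutation p = 0.2). With the spread of this ratio alone the interval was -0.05 to 0.46. Without siCtrl 1 the difference was 0.27 (limma adjusted p = 0.00655, too small for the reason given above). The reads of IGFBP4 per read of its protease PAPPA were 25.35, 36.9 and 34.96 in the control libraries, against 52.8, 54.1 and 50.4 in the knockdown libraries, with siCtrl 1 again apart from the other two. Without siCtrl 1 the rise of IGFBP4 exceeded that of PAPPA by 0.55 in place of 0.71. It exceeded that of IGF2R by 0.61 in place of 0.73. The limma p-values of these fits became smaller although the differences shrank, so they are not used as evidence.

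Levels of different genes were compared on the FPKM scale, which is per length. This scale does not carry the TMM scaling. The median log2 fold change of all tested genes was 0.123 on log2(FPKM + 0.1), beside 0.01 with TMM. Differences in FPKM between the groups include this shift. IGFBP4 was the most abundant of the 8 by far, at 826 ± 37.0 FPKM in siCtrl and 1995 ± 67.1 in siDDX17 (SD, n = 3). By FPKM it held rank 94 to 96 of all genes in the siCtrl libraries and rank 39 to 40 in the siDDX17 libraries. IGFBP3 came second, at 93.2 ± 4.88 and 259 ± 11.6 FPKM. IGFBP6 followed in both groups at 35.7 ± 2.27 and 36.5 ± 1.02 FPKM.

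The order below them changed. In siCtrl IGFBP1 came next at 20.6 ± 2.51 FPKM and IGFBP2 at 19.2 ± 0.536, whose ranges overlapped, and then IGFBP7 at 11.5 ± 0.85. In siDDX17 IGFBP2 at 27.6 ± 0.281 and IGFBP7 at 20.1 ± 1.12 both stood above IGFBP1 at 9.87 ± 0.889, with no overlap between neighbours. IGF2R and PAPPA were lowest, at 5.47 ± 0.514 and 5.23 ± 0.859 FPKM in siCtrl and 7.96 ± 0.144 and 7.64 ± 0.233 in siDDX17, and their ranges overlapped in both groups.

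**Figure D3:**
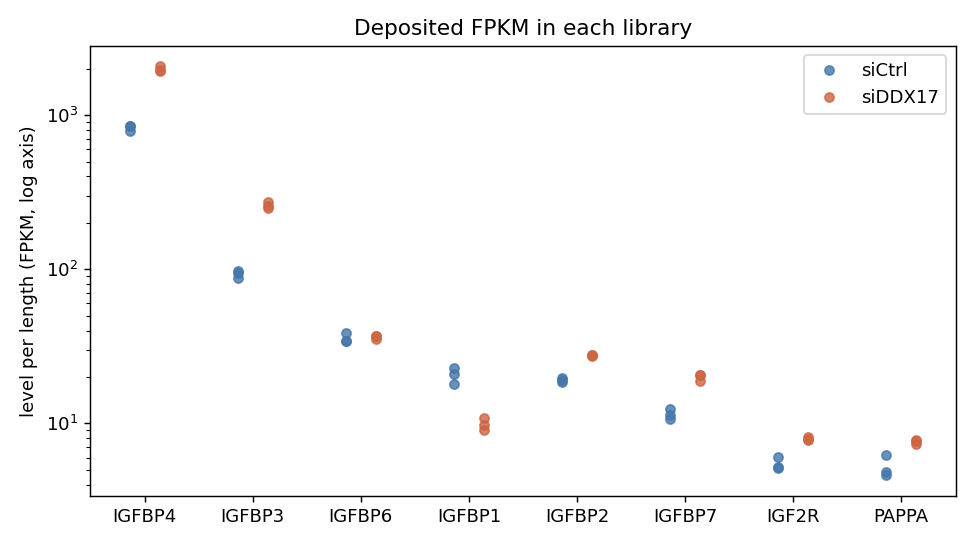
Deposited FPKM of each gene in each library (vertical log axis), siCtrl in blue and siDDX17 in orange, with genes ordered by their mean in siCtrl. IGFBP4 lies above all others in both groups, and IGFBP1 drops below IGFBP2 and IGFBP7 in siDDX17.

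Summed over the 6 IGFBP genes, FPKM was between 965 and 1032 in the siCtrl libraries and between 2309 and 2422 in the siDDX17 libraries. IGFBP4 gave 81.2% to 82.8% of this sum in siCtrl and 84.2% to 85.5% in siDDX17, and IGFBP3 gave 8.58% to 10.1% and 10.6% to 11.8%. Without these 2 genes the sum was 84.6 to 88.4 FPKM in siCtrl and 92.8 to 95.3 in siDDX17. That small rise was not told apart from the upward shift of FPKM over all genes. Most of the rise in the sum lay in IGFBP4 and IGFBP3.

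Short RNA strands can pair with messages through bases 2 to 8, so the matching 7 bases of both strands of each siRNA were looked for in the canonical 3' UTRs. IGF2R held TATTGCT, which pairs with the DDX17 siRNA's antisense strand, at base 1292 of 6420, IGFBP4 held ATGGGTG, which pairs with its sense strand, at base 178 of 1142, and IGFBP1 held TGTCACG, which pairs with the control siRNA's antisense strand, at base 21 of 569 (capitals mark the match):
IGF2R: ctctggtgttcTATTGCTgagaagcaaacc
IGFBP4: tgtttgtgagcATGGGTGtgcccttggggt
IGFBP1: aaataatgttcTGTCACGtgaaatatttaa
IGFBP3, IGFBP2, IGFBP6, IGFBP7 and PAPPA held 0 matches to these 3 or to TCGGAGA, which pairs with the control siRNA's sense strand. IGFBP5, which is not among the 8 genes, held ATGGGTG at base 2077 of 4646. Of 12987 tested genes with such a UTR, 14.5% held TATTGCT, 10.5% ATGGGTG, 3.07% TGTCACG and 2.13% TCGGAGA. The part of these matches in the changes was not tested.

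For the rest of the pathway, 100 genes were listed by role in 8 lists, of which 88 were tested. Of these, 27 were higher and 23 lower in siDDX17 (30.7% and 26.1%, beside 24.5% and 24.3% of all genes), and their median log2 fold change was 0.03. With scaling by library size only, which moved the median of all genes to 0.13, 38 were higher and 17 lower, so 69.1% of the calls were upward in place of 54%, as were 67.7% in place of 50.1% over all genes.

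Of the ligands, IGF1 had at most 2 reads in a library and was not tested. IGF2 was low, between 115 and 150 reads, at 3.92 ± 0.429 CPM in the control and 3.29 ± 0.480 CPM in the knockdown libraries (SD, n = 3), a log2 fold change of -0.25 (edgeR adjusted p = 0.177) with overlapping groups. IGFALS, the partner of IGFBP3 in the blood complex, had at most 6 reads, and PAPPA2, the close relative of PAPPA, at most 2.

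Among receptors and adaptors 6 of 11 rose and 2 fell (54.5% and 18.2%, beside 24.5% and 24.3% of all tested genes). IGF1R, the receptor through which IGFs signal, was at 67.6, 64.8 and 61.4 CPM in the control libraries, against 113, 111 and 107 CPM in the knockdown libraries. This is a rise of 0.77 on the log2 scale (standard error 0.0574, edgeR adjusted p = 2.12e-07) with no overlap. The adaptors IRS1 and IRS2, which pass its signal on, went in opposite directions, with log2 fold changes of 0.23 (edgeR adjusted p = 0.0103) and -0.83 (edgeR adjusted p = 2.12e-07). The small rise of IRS1 had an adjusted p of 0.0558 without siDDX17 3. The insulin receptor INSR was at 6.54 ± 0.753 and 7.26 ± 0.637 CPM and did not pass (edgeR adjusted p = 0.289).

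Of 10 tested other genes with an IGFBP domain or of the CCN and HTRA families, 5 rose and 2 fell. These are 50% and 20%, beside 24.5% and 24.3% of all tested genes. IGFBP5, the remaining member of the IGFBP family proper, was expressed at 0.16 to 0.23 FPKM in siCtrl and 0.44 to 0.72 FPKM in siDDX17. It had 51, 32 and 47 reads in the control libraries, against 106, 165 and 124 reads in the knockdown libraries. Its log2 fold change of 1.42 (standard error 0.211, edgeR adjusted p = 9.90e-05) was of the size of that of IGFBP3, at a far lower level. CCN1, a matrix protein and target of YAP, rose by 1.07 on the log2 scale, from 22.0 ± 3.77 to 46.1 ± 1.99 CPM, and CCN4, a target of Wnt signalling, changed by -1.56 on that scale, from 7.74 ± 0.930 to 2.62 ± 0.398 CPM (edgeR adjusted p = 1.85e-06 and 1.26e-06). IGFBPL1 had 1 to 8 reads in siCtrl and 15 to 22 in siDDX17, with an edgeR adjusted p of 0.00961 that became 0.0543 without siDDX17 2. CCN2, a further YAP target, was at 48.7 ± 10.2 and 48.4 ± 4.09 CPM and did not pass.

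Of 15 tested proteases that can cut IGFBPs and their inhibitors, 3 rose and 6 fell. These are 20% and 40%, beside 24.5% and 24.3% of all tested genes. STC2, a secreted inhibitor of PAPPA, was at 356, 190 and 172 CPM in the control libraries, against 111, 102 and 97.3 CPM in the knockdown libraries. All siDDX17 libraries were lower, and siCtrl 1 was far above the other control libraries. The log2 fold change was -1.21 (standard error 0.199, edgeR adjusted p = 0.000236), and -0.81 without siCtrl 1. The reads of PAPPA per read of STC2 were 0.204, 0.297 and 0.339 in the control libraries, against 0.728, 0.833 and 0.874 in the knockdown libraries. Its relative STC1, also a PAPPA inhibitor, was at 58.1 ± 10.7 and 49.1 ± 2.0 CPM and did not pass (edgeR adjusted p = 0.0597). HTRA1, a serine protease that cleaves IGFBPs, was counted with the CCN and HTRA families and not among these 15. It was at 77.4 ± 4.99 and 80.2 ± 2.47 CPM and did not pass (edgeR adjusted p = 0.531).

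**Figure D4:**
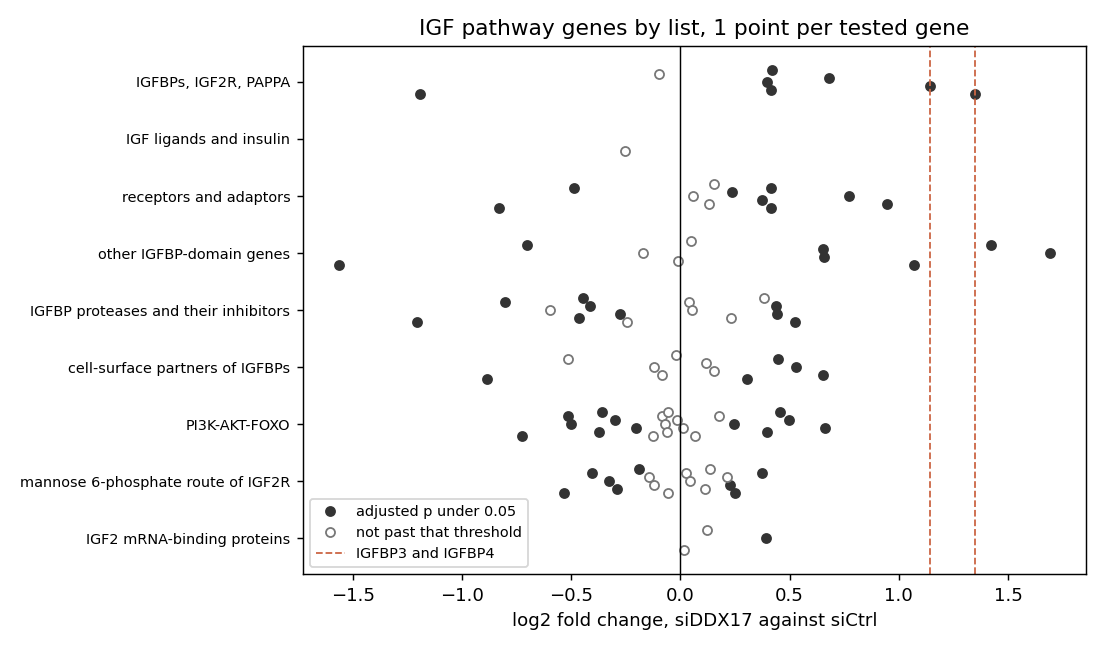
Log2 fold change, siDDX17 against siCtrl (horizontal axis), of each tested gene of the 8 pathway lists and, in the top line, of the IGFBPs, IGF2R and PAPPA, with filled points for genes at an adjusted p under 0.05 and dashed lines at IGFBP3 and IGFBP4. Filled points lie on both sides of 0 in most lists, and only IGFBP5 and IGFBPL1 lie to the right of the IGFBP3 line.

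Of 11 tested surface proteins with which IGFBPs are known to interact, 4 rose and 1 fell. These are 36.4% and 9.09%, beside 24.5% and 24.3% of all tested genes. The gene that fell was ITGA5, at 200.3 ± 15.4 CPM in siCtrl and 108 ± 0.624 in siDDX17, a log2 fold change of -0.89 (edgeR adjusted p = 1.30e-07). Its ligand IGFBP1 also fell, and a link between the 2 was not tested. The integrin chain ITGB1 had a log2 fold change of -0.12 and did not pass (edgeR adjusted p = 0.149). On the route that IGF2R serves, 3 of 16 genes rose and 5 fell (18.8% and 31.2%, beside the same shares of all genes). M6PR, the smaller mannose 6-phosphate receptor, was at 153 ± 6.24 and 165 ± 1.98 CPM and did not pass (edgeR adjusted p = 0.1). GNPTAB, which makes the mannose 6-phosphate tag, changed by -0.41 on the log2 scale (edgeR adjusted p = 0.000566). GNPTG and NAGPA of the same route rose, by 0.23 and 0.25 on that scale (edgeR adjusted p = 0.00956 and 0.0074).

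The genes most like IGFBP3 and IGFBP4 were found by the smallest root mean square difference in centred log2 CPM over the 6 libraries, among 8974 other genes whose mean was 3 log2 CPM or more. For IGFBP3 these were PRSS23, ADPRHL1 and EFEMP1, with differences of 0.0634, 0.0648 and 0.0672 and log2 fold changes of 1.40, 1.32 and 1.34. PRSS23 encodes a secreted serine protease, and EFEMP1 a matrix glycoprotein. For IGFBP4 they were C7orf55, ADCY9 and MTA1, with differences of 0.0258, 0.0342 and 0.0349 and log2 fold changes of 1.16, 1.15 and 1.14. ADCY9 encodes an adenylyl cyclase and MTA1 a chromatin protein. All these genes were measured in the same 6 libraries, so the likeness is a description.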

How the data were processed

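RNA-seq of polyadenylated RNA from A549 cells was compared between 3 siCtrl and 3 siDDX17 libraries. Adaptors and low-quality bases were removed by the authors, and uniquely mapped reads (TopHat2, GRCh38) were counted per gene. The authors deposited raw counts for 29476 genes and FPKM values for 29242 genes, rounded to 2 decimals. The libraries were made with a stranded kit. The counting program, annotation release and use of strand in counting are not given in the sources used here. The methods speak of biological replicates, 1 library each.

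The quasi-likelihood test of edgeR 4.0.16 (R 4.3.3) was run on the counts with TMM scaling, its expression filter and siDDX17 set against siCtrl, with Benjamini-Hochberg adjustment over 15615 genes. CPM were computed by edgeR on the TMM-scaled library size. Ratios to IGFBP3 or IGFBP4 were fitted with limma 3.58.1 on log2 CPM with a prior count of 2. On simulated counts the edgeR calls and the sizes of the limma differences were checked, and false calls of the limma ratio test were not. Alternatives were RLE scaling, library size only, DESeq2 1.42.0, no low-count filter, limma on log2(FPKM + 1) and log2(FPKM + 0.1), a replicate block, 2 other call rules and each library left out, and for the ratios a prior count of 0.5. Totals of 30658136 to 39182371 reads gave every one of the 8 genes at least 568 reads per library.

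The 8 genes, the pathway lists and the tests were chosen with earlier results of these data known. Named besides them were pathway genes past a 2-fold change, 13 pathway genes set by role, and 3 genes most alike to IGFBP3 and to IGFBP4. SH2B1, GNPTAB, GNPTG, NAGPA, ITGA5, ITGB1, CCN2, the IGF2BP genes and the PI3K and AKT genes were named after their values were seen. For older symbols (CYR61 for CCN1, CTGF for CCN2, WISP1 for CCN4) and symbols with several identifiers, the entry with most reads was used. Positions and 3' UTRs (at least 30 bases) are of GENCODE release 44 on GRCh38, and promoters of RefSeq on GRCh38.p14.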

Additional observations from a re-analysis of the deposited data

How the results depend on the processing

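The directions and calls of IGFBP1, IGFBP2, IGFBP3, IGFBP4, IGFBP7, IGF2R and PAPPA were the same under all 13 alternatives, with log2 fold changes of 1.31 to 1.48 for IGFBP3, 1.08 to 1.27 for IGFBP4 and -1.27 to -0.99 for IGFBP1. IGFBP6 turned to 0.027 with library size only, 0.032 on log2(FPKM + 1) and 0.033 on log2(FPKM + 0.1), and ranged from -0.15 to -0.036 on leaving out single libraries, passing without siCtrl 1, so that 1 to 2 genes were called lower. With a fold limit of 2, 2 of the 8 and 3 pathway genes were higher and 1 of the 8 and 2 pathway genes lower, beside 4.65% and 2.92% of all tested genes; at the study's own limits (p under 0.01, fold of 1.5), 3 of the 8 and 9 pathway genes were higher and 1 of the 8 and 7 pathway genes lower, beside 11% and 8.03% of all tested genes. The 12 ratios of IGFBP3 or IGFBP4 to the other genes kept direction and call under all 11 alternatives, the unmoderated spread being chosen after seeing the data. The difference between IGFBP3 and IGFBP4 was 0.14 to 0.27 with each library left out. The replicate numbers did not pair the libraries: deviations of same-numbered libraries correlated at 0.00698, 0.0407 and -0.0564, and 2 of 6 libraries correlated best with their own number. With the replicate block that difference of 0.20 had an adjusted p of 0.00536, 3743 genes were called higher and 3738 lower in place of 3819 and 3798, and no other call on the 8 genes or their ratios changed. Depth was no limit for the 8 genes, but IGF1, IGFALS and PAPPA2 had too few reads to test.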

Other observations

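Downstream of the IGF1 receptor, 5 of 21 tested PI3K, AKT and FOXO genes rose and 7 fell in siDDX17, beside 24.5% and 24.3% of all tested genes. AKT1, a kinase that carries the signal, rose by 0.66 on the log2 scale, from 67.9 ± 2.28 to 107.5 ± 3.66 CPM (SD, n = 3). AKT2 had a log2 fold change of -0.06 (edgeR adjusted p = 0.448), with 0.07 when libraries were scaled by size only. The catalytic subunit genes PIK3CB and PIK3CD changed by -0.51 and -0.72 on that scale. SH2B1, an adaptor of the insulin and IGF1 receptors, had the largest rise among the receptors and adaptors, of 0.95 on the log2 scale, from 13.7 ± 0.417 to 26.4 ± 1.08 CPM (edgeR adjusted p = 2.65e-07). IGF2BP2, 1 of 3 IGF2 mRNA-binding proteins, rose by 0.39 on the log2 scale (edgeR adjusted p = 0.000450), and IGF2BP1 and IGF2BP3 did not pass.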
